A study of Mus musculus with 18 samples.

Results

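NMuMG cells are an established epithelial line from normal mouse mammary gland, and the 9 arrays described here are those labelled MAZ1310, 8hr, among the 18 arrays of the series. They come from 3 cultures (biological replicates 1 to 3), each hybridized to 3 technical arrays, and every culture was freshly plated in DMEM with serum, insulin and antibiotics 45 minutes before 10 nM MAZ1310 in acidified DMSO was added for 8 hr. MAZ1310 is an analog of halofuginone that the labels call inactive, so these cultures are the control arm. Untreated and vehicle cultures were not analysed here, and a baseline in the compound and its solvent cannot be told apart from a baseline without them. The cultures carry no transgene or deletion by their labels, all come from 1 line, and nothing says whether they were started on separate days. The question put to the data was which genes and gene families gave a bright, an intermediate or a near-background signal in these cells.

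Mammary epithelium has an inner luminal layer, marked by the paired keratins Krt8 and Krt18 and by E-cadherin, and an outer basal layer of myoepithelial cells, marked by Krt5, Krt14, the transcription factor Trp63 and smooth muscle contractile proteins. Luminal cells turn on caseins, whey acidic protein and the other milk genes only in pregnancy and lactation. Epithelial cells in plastic culture divide, lay down basement membrane and can take on the intermediate filament vimentin and other mesenchymal proteins.

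Each of the 21973 probes of the deposited table has a signal on a linear scale, with no detection call. Values were taken to log2, the median over the probes of a gene gave 16675 genes, and the mean of the 3 technical arrays stands for a culture (n = 3). A background limit was set from 808 genes of the odorant, vomeronasal and taste receptor families, which are used by sensory neurons and taste cells. Their 95th percentile lay at a log2 intensity of 8.76 (intensity 433), and genes with a mean at or below it are called near background. Genes above the 90th percentile of all genes, 11.59 (intensity 3080), are called bright, and those between the limits intermediate. A band describes the signal of a gene's probes. Probes differ in how well they bind, so bands do not rank transcripts by number, and a gene near background may be expressed but poorly measured.

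By these limits 1668 genes were bright (10.0%), 4994 intermediate (29.9%) and 10013 near background (60.0%). The test for a level above the background limit (limma, one-sided, Benjamini-Hochberg adjusted over all genes) called 5689 genes, 34.1% of those tested. Of the receptor genes that set the limit, 16 of 808 were called (1.98%). In all, 6035 genes were above the limit in each of the 3 cultures, 9353 were at or below it in each, and 1287 lay on both sides. The median of all genes was 8.01, and that of the receptor genes was 6.42.

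**Figure D1:**
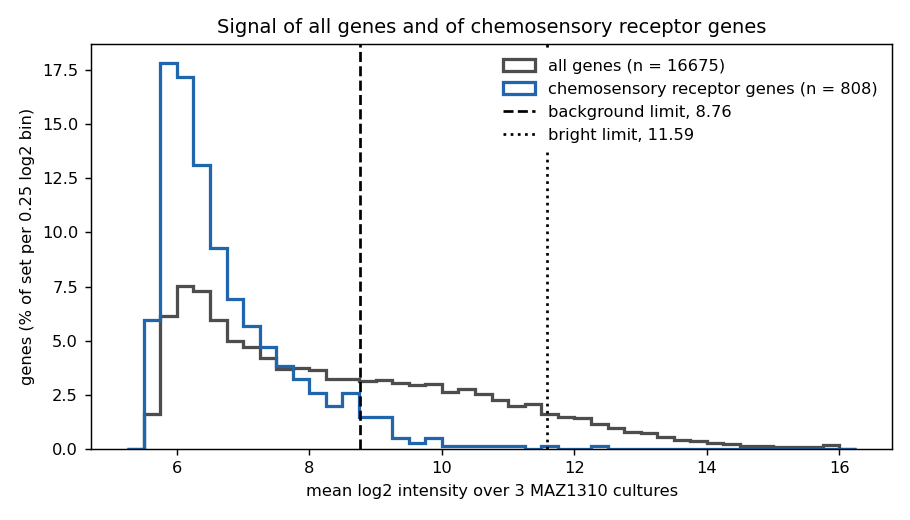
Histogram of the mean log2 intensity over 3 MAZ1310 cultures (x axis) as the percentage of each set per bin (y axis), for all 16675 genes and for the 808 chemosensory receptor genes. The receptor genes peak near 6 and thin out above the background limit (dashed line, 8.76), while all genes form a long shoulder that reaches past the bright limit (dotted line, 11.59).

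Culture 1 stood apart from the other cultures, most clearly on its arrays 1 and 2. Across genes, its arrays correlated with those of cultures 2 and 3 at r = 0.944 to 0.979, against 0.965 to 0.987 between cultures 2 and 3. Arrays 1 and 2 of culture 1 were the farthest off (0.944 to 0.974). Its array 3 gave 0.967 to 0.979, within the range between cultures 2 and 3. Among themselves the arrays of culture 1 correlated at 0.965 to 0.976. The 95th percentile of the receptor genes was 9.26 in culture 1, 8.66 in culture 2 and 8.49 in culture 3, with medians of 6.52, 6.39 and 6.30. On array 3 of culture 1 alone that percentile was 9.12. The part of this higher background in the results was not tested. Without culture 1, and with both limits set again from cultures 2 and 3, 6386 genes (38.3%) were called above background. By those limits 96.0% of genes kept their band, while 666 changed it. The number of cultures limits the precision of each value.

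The top of the scale was compressed. On every array 27 to 98 probes shared that array's highest value, and 13 genes were at it on all 9 arrays, so that their levels are lower bounds and have no order. They are Actg1, Anxa2, Atp5b, Ftl1, Lgals1, Prdx1, Ptma, Rpl41, Rpl8, Rps21, S100a6, Spp1 and Vim. Each of the 13 genes had a mean of 15.95, with 15.86 in culture 2 and 15.98 in culture 3. Of the 20 genes with the highest means, the others are Eef1g, Krt8 and Krt18, at the highest value on 8 of 9 arrays each, and Hnrpab, S100a10, Pgk1 and Pgam1, on 6 arrays each.

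These 20 genes fall into a few kinds. Rpl8, Rpl41 and Rps21 are ribosomal proteins and Eef1g is a subunit of the elongation factor that delivers aminoacyl-tRNA. Atp5b is the catalytic subunit of mitochondrial ATP synthase, and Pgk1 and Pgam1 are glycolytic enzymes. Actg1 (cytoplasmic gamma-actin), Vim, Krt8 and Krt18 build the cytoskeleton, and Anxa2 with its partner S100a10 binds membranes in the presence of calcium. Prdx1 removes hydrogen peroxide, Ftl1 stores iron, and Spp1 (osteopontin) and Lgals1 (galectin-1) are secreted.

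Promoters of bright genes are shown beside those of near-background genes (Epcam and Tas2r123) and intermediate genes (Csn2, 9.16, and Olfr544, 11.55). They are shown because bright and near-background genes differed in base composition, as described at the end. All come from RefSeq (GRCm38.p6) and run from 120 bases before to 30 bases after the annotated start, 5′ to 3′ on the gene's strand. Capitals mark any match, on either strand, to a TATA box, which is spelled TATAAA here, to a CCAAT box, to a GC box, spelled GGGCGG, or to an ETS site with the letters CCGGAAGT. Bright genes of the epithelial and secreted kind are Krt8 (chr15:102004313-102004462, minus strand), Krt18 (chr15:102028096-102028245, plus), Vim (chr2:13574191-13574340, plus) and Spp1 (chr5:104434991-104435140, plus).
Krt8: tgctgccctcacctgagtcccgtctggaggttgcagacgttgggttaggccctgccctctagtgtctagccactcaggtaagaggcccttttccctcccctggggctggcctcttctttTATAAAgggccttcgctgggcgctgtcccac
Krt18: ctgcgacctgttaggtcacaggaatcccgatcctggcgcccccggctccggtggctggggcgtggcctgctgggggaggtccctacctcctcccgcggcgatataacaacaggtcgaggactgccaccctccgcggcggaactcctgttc
Vim: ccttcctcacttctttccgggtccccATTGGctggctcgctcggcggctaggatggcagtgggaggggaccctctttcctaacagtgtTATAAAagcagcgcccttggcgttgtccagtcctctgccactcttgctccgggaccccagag
Spp1: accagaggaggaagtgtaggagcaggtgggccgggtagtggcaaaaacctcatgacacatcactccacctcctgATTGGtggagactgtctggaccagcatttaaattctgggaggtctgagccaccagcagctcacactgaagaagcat
Bright genes of the housekeeping and dividing-cell kind are Atp5b (chr10:128083187-128083336, plus), Rpl41 (chr10:128549139-128549288, minus), Pcna (chr2:132253151-132253300, minus), Ube2c (chr2:164769809-164769958, plus) and Mcm6 (chr1:128359676-128359825, minus).
Atp5b: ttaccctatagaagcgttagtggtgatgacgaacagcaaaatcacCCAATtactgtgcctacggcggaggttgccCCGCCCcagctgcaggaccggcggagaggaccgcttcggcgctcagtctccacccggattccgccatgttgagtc
Rpl41: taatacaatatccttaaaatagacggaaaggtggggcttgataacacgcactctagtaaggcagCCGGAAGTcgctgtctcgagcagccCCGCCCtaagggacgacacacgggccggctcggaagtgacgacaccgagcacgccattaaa
Pcna: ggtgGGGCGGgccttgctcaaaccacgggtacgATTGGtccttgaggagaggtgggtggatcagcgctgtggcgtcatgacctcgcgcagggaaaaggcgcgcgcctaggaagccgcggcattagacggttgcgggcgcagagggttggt
Ube2c: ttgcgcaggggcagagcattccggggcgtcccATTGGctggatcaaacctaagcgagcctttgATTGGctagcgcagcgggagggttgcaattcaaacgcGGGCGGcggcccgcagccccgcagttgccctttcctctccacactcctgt
Mcm6: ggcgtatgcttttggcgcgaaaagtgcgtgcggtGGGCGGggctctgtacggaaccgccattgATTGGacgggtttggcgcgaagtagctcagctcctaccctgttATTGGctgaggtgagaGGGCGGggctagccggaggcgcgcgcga
Mammary genes without a called signal are Epcam (chr17:87635859-87636008, plus) and Csn2 (chr5:87699396-87699545, minus). The receptors are Olfr544 (chr7:102488278-102488427, minus), 1 of the 2 brightest odorant receptors, and Tas2r123 (chr6:132847022-132847171, plus), picked after its value was seen as the taste receptor with the lowest signal.
Epcam: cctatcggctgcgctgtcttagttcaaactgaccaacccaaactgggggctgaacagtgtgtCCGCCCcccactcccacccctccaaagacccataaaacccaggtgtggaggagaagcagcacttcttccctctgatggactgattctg
Csn2: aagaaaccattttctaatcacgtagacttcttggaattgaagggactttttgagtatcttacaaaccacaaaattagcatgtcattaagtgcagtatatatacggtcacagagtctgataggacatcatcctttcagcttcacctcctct
Olfr544: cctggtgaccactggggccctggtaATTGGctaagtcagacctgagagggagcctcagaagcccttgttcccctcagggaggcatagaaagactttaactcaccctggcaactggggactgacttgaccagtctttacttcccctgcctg
Tas2r123: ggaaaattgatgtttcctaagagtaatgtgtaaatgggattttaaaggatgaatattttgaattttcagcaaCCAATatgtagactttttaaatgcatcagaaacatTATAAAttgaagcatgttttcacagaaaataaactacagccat

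The label of mammary epithelium was checked against marker lists. Of 17 measured luminal and simple epithelial markers, 8 passed the test, against 34.1% of all genes. Krt8 (15.98, 15.86 and 15.98 in cultures 1 to 3) and Krt18 (15.95, 15.86 and 15.98) were near the top of the scale. Krt7 was 13.41, 13.24 and 13.30, and Krt19 was 13.66, 12.80 and 13.08. E-cadherin (Cdh1), which holds epithelial cells together, was 12.69, 13.61 and 13.93. Every culture thus had these keratins and Cdh1 in the bright band, and for Cdh1 culture 1 was the lowest. Spint2, an inhibitor of membrane serine proteases, was bright (12.23 ± 0.35, SD, n = 3), and Cldn4, a tight junction claudin, was intermediate (10.66 ± 0.61, SD, n = 3).

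Other luminal markers were near background. Epcam, annotated on the array under its older symbol Tacstd1, read 5.83, 6.0 and 5.99, below the median of the receptor genes in every culture. Esrp1 (annotated as Rbm35a), an epithelial splicing factor, read 6.02, 6.04 and 5.94. Cldn3, Cldn7, Spint1, and the transcription factors Ehf, Elf3 and Grhl2 had means between 6.18 and 8.44, and Prom1 had a mean of 7.87. Epcam and Esrp1 have 1 probe each. Dsp (desmoplakin, which anchors keratins to desmosomes) had a mean of 10.26 from a probe at 13.51 and a probe at 7.02, so its band depends on the probe.

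Basal and myoepithelial markers were mostly near background (75.0%, against 60.0% of all genes). The test called 1 of 12, against 34.1% of all genes. The exception was Itgb4, the beta subunit of the hemidesmosome integrin, at 9.63, 10.19 and 10.24 (limma adjusted p = 0.000149). Krt14 was 10.10, 9.18 and 8.68 and Myh11, smooth muscle myosin, was 9.81, 8.43 and 8.82, and neither was called above background (limma adjusted p = 0.0786 and 0.438). Both were highest in culture 1, and both were called as different between cultures (limma F test, adjusted p = 0.0192 and 0.0333). The number of genes called by this F test depended strongly on the arrays used and on the fit, as given below. Krt5 (6.93), Krt15 (5.92), Trp63, Oxtr and Cdh3 were near background. Acta2, smooth muscle actin, had a median over 4 probes of 7.05, although 1 of its probes read 11.66.

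None of the 9 markers of mature secretory cells passed the test, against 34.1% of all genes. Csn2 (beta-casein) was 10.34 in culture 1, 8.72 in culture 2 and 8.41 in culture 3, and the limma adjusted p for a level above background was 0.34. Only culture 1 lay above the limit, and the difference between cultures was itself called (limma F test, adjusted p = 0.0169). Csn1s1 (7.18), Csn3 (7.43), Lalba (6.88), Glycam1 (6.01) and Wap (5.94) were near background in their means.

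Among 14 markers of fibroblasts and mesenchyme 2 were called (14.3%, against 34.1% of all genes). They were Vim at the top of the scale and Cdh2 (N-cadherin) at 10.09, 10.61 and 10.21 (limma adjusted p = 2.28e-05). The matrix genes that define fibroblasts were near background. Col1a1 read 6.27, 6.70 and 6.69, Col3a1 had a mean of 6.65 and Col1a2 of 6.95, and Dcn, Lum, Postn, Pdgfra and Pdgfrb were between 5.83 and 6.31. Twist1, a driver of epithelial to mesenchymal transition, was 9.32, 8.56 and 8.57 and was not called. In a wider list of 21 mesenchymal genes, 5 were called (23.8%). These included S100a4 (15.48 ± 0.23, SD, n = 3), the transcription factor Snai1 (11.97, 10.82 and 10.62) and Fn1, fibronectin (10.62, 11.01 and 10.96). Levels from a culture cannot show whether 1 cell holds both Krt8 and Vim.

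**Figure D2:**
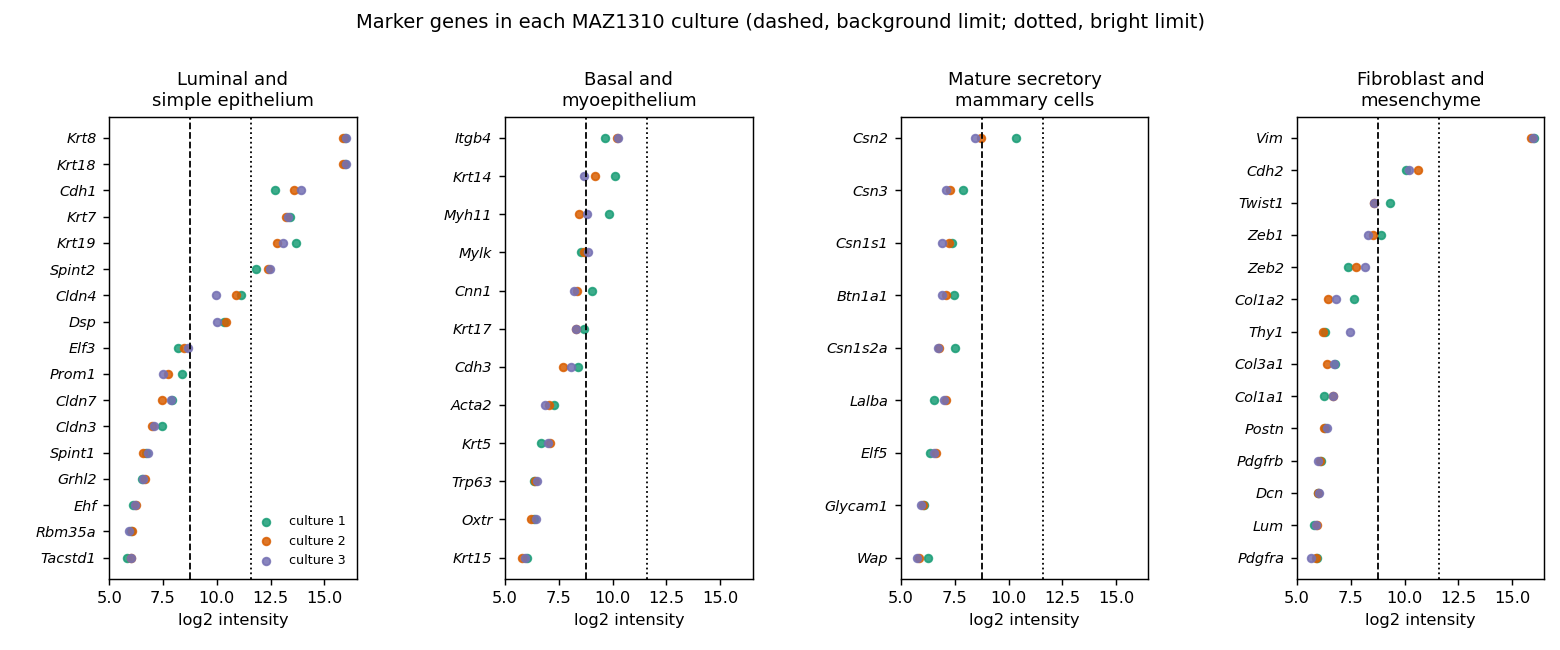
Log2 intensity (x axis) of each marker gene (y axis, symbols as annotated on the array) in MAZ1310 cultures 1, 2 and 3 (colored points), for 4 marker lists. The keratins Krt8, Krt18, Krt7 and Krt19 and Cdh1 lie right of the bright limit (dotted line, 11.59) in all cultures, as does Vim, while Epcam (Tacstd1), most basal markers and the fibroblast collagens lie left of the background limit (dashed line, 8.76).

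Markers of cells that a mammary line should lack gave a low background. None of 13 endothelial genes was called, and Kdr had a mean of 5.87. Pecam1 had a mean of 8.20 from probes at 9.26 and 7.14, and Robo4 and Eng also had a probe above the limit (8.95 and 8.81) beside a lower one. Of 25 blood cell genes 3 were called, and the common leukocyte antigen Ptprc read 6.08, 5.84 and 6.04. The exceptions were Cd14, a co-receptor for endotoxin that is also found on epithelia, at 12.94, 13.11 and 12.82, Epor (9.80) and Cd79a (9.46). Of the adipocyte genes 2 of 13 were called, Lipe (10.51) and Slc2a4 (9.35), with Adipoq at 6.45. Among genes of other tissues, 1 of 26 germ cell, 2 of 27 neuron and glia, 1 of 29 muscle, 4 of 19 liver, 1 of 12 pancreas and 2 of 14 photoreceptor genes were called. Of all genes 34.1% were called. Examples of those called are Tnnt2 (cardiac troponin T, 11.48, 10.94 and 11.25), Slc6a3 (the dopamine transporter, 10.02), Trf (transferrin, 12.11), Hpx (10.65), Ctrb1 (10.74), Crx (10.10) and Gnat1 (10.04). Whether those transcripts are present was not tested.

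Keratins split by type. In the list of simple epithelial keratins 5 of 6 were bright, with Krt20, an intestinal and urothelial keratin, at 12.80, 12.01 and 12.96, and Krt23 near background (7.70). Of 11 basal and stratified keratins 2 were called (18.2%, against 34.1% of all genes), Krt1 and Krt10. These form a pair in the upper epidermis. Krt1 was 12.12, 14.56 and 14.06, lowest in culture 1 (limma F test between cultures, adjusted p = 0.0468), and Krt10 was intermediate at 9.69, 9.91 and 9.83. Over all 46 measured keratins, 7 were bright (15.2%, against 10.0% of all genes), 3 intermediate and 36 near background (78.3%, against 60.0%).

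Junction genes as a whole passed the test about as often as all genes (34.1%), with 10 of 26 in the list of adherens junctions and desmosomes (38.5%) and 8 of 26 tight junction and polarity genes (30.8%). Ctnnb1, beta-catenin, was 15.59, 15.59 and 15.22, and Ctnna1, alpha-catenin, which links it to actin, was 14.83, 14.55 and 14.05. Vcl (vinculin) was 13.22, 13.49 and 13.78. At the low end stood the desmosomal cadherins Dsc1, Dsc2 and Dsg1a, with means of 5.89 to 6.18. The tight junction and polarity genes called included the scaffold Tjp1 (ZO-1, 13.20 ± 0.15, SD, n = 3), the claudins Cldn12 (12.08) and Cldn2 (11.32, from probes at 8.82 and 13.82), and the polarity kinase Prkci (11.50), while Cldn8 was at 5.77.

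The cadherin family had 3 bright members. Beside Cdh1 these were Cdh17 (14.05, 14.52 and 14.70) and Cdh16 (13.18, 13.15 and 13.03), known as the liver-intestine and kidney cadherins. Of 21 cadherins 16 were near background (76.2%, against 60.0% of all genes), and so were 34 of 36 protocadherins (94.4%), with Pcdh7 bright (11.75). Gja1, connexin 43, was the brightest of 15 connexins (10.62), and 13 of them were near background.

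Among 24 integrins 9 were called (37.5%, close to the 34.1% of all genes), led by Itgb1 (14.18, 14.36 and 14.65), the common beta subunit, Itga3 (12.93, 13.11 and 13.01) and Itga6 (11.32, 11.84 and 11.80), which pair with beta subunits to bind laminin. Itga6 was below the bright limit in culture 1, and its probes read 12.81 and 10.49. Of the other laminin-binding subunits Itgb4 was intermediate (10.02) and Itga7 was near background (8.27). Of 22 laminin and basement membrane genes 9 were called (40.9%, against 34.1% of all genes). Col4a2 (13.41, 12.87 and 13.46) and Col4a1 (12.11, 11.73 and 11.96), the 2 chains of the common type IV collagen, were bright in every culture, as were Lamc1 (13.13, 12.91 and 13.40), a laminin gamma chain, and Col18a1 (12.68 ± 0.19, SD, n = 3). Lama1 and Lama3 read 5.89 and 6.01. Over the collagen family 3 of 39 genes were bright, Col4a2, Col18a1 and Col4a1, and 31 were near background (79.5%, against 60.0% of all genes).

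Matrix remodeling genes were bright for a few members. Plaur, the urokinase receptor, was 13.68, 13.91 and 14.25. Mmp13, a collagenase, was 12.80, 13.07 and 13.36, and the inhibitor Timp1 was 12.78, 12.81 and 12.80. Plat, tissue plasminogen activator, was intermediate (11.25). Of 22 matrix metalloproteases 18 were near background (81.8%, against 60.0% of all genes), down to Mmp7 at 5.80. Adam9 (12.90) was the bright member among 49 ADAM and ADAMTS genes. The lysosomal protease Ctsb was 13.62 in culture 1 against 15.28 and 15.33 in the others (limma F test between cultures, adjusted p = 0.16).

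Of the receptor tyrosine kinases, 10 of 51 were called (19.6%, against 34.1% of all genes). Axl, the receptor for Gas6, was 14.49, 14.63 and 14.37, and Ryk, a Wnt co-receptor, was 11.85, 12.32 and 12.35. Egfr (11.06, 11.01 and 10.71) and Epha4 (10.87, 10.92 and 10.90) were intermediate. Epha3, Pdgfra, Kdr and Tek were between 5.75 and 5.93. Ligands of Egfr were intermediate for Hbegf (11.08, 11.32 and 11.21), Epgn (10.39, 9.81 and 9.54), Ereg (9.21, 9.32 and 9.52) and Tgfa (8.73, 9.51 and 9.55), of which Tgfa was not called (limma adjusted p = 0.0531). The values of Ereg lie between a probe at 6.85 and a probe at 11.85. Egf itself read 6.64, 6.68 and 6.97, and Nrg2, Nrg3 and Nrg4 were near background too.

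Hormone receptors that guide mammary growth were largely near background. Of 15 measured 2 were called. Ghr, the growth hormone receptor, was 11.07, 12.02 and 12.34, lowest in culture 1, and Igf1r was 9.03, 9.35 and 9.27 (limma adjusted p = 0.0351). Esr1 (5.85, 6.03 and 6.06), the estrogen receptor, and Pgr (6.49, 6.98 and 6.72), the progesterone receptor, lay at the level of the chemosensory receptors in all cultures. Vdr (7.10) and Oxtr (6.33) were near background. No nuclear receptor of 43 was bright, against 10.0% of all genes, and 8 were called above background (18.6%, against 34.1%). Igfbp7, a secreted binding protein, was the bright member of the insulin and IGF list at 15.66, 15.54 and 15.42. Pik3ca (10.56) and Akt1 (10.50), downstream of those receptors, were intermediate.

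The TGF-beta system was measured in 33 genes, of which 14 were called (42.4%, against 34.1% of all genes). Leading members were Ltbp3 (12.20), which stores the latent ligand, the receptor Acvr1 (12.03), and the signal carriers Smad3 (11.99, 11.86 and 11.52) and Smad5 (11.31, 11.70 and 12.09). Tgfb2 was near background (6.31, 6.43 and 6.60). In the Wnt list 7 of 29 were called (24.1%), with Axin1 (11.39), Dvl1 (11.30) and Gsk3b (10.28) after Ctnnb1, and Dkk3 at 5.79. Of 19 Wnt ligands none was bright. The Notch list had 5 of 20 called (25.0%). Among them were the ligand Jag1 (12.18, 12.56 and 12.28), the co-activator Maml1 (11.74), the secretase subunit Ncstn (11.06) and the target Hes1 (10.17). Jag2 read 5.82 and Notch2 6.07.

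Transcription factors of the mammary and epithelial list passed the test in 7 of 23 (30.4%, close to the 34.1% of all genes). Cebpb, required for mammary duct growth, was 13.23, 13.34 and 13.08. Klf5 was 12.78, 11.82 and 11.71 and Msx2 was 12.42, 11.36 and 11.23, both highest in culture 1 and both called as different between cultures (limma F test, adjusted p = 0.024 and 0.0345). Without culture 1, and with the limits set again from the others, the list has 2 bright members in place of 3. Sox9, found in mammary progenitors, was intermediate (11.15, 10.90 and 10.62). Elf5, the factor of alveolar luminal cells, had a mean of 6.49, and Ovol2, Bcl11a and Tbx3 were at 5.58, 5.88 and 6.13. Of 37 Hox genes 33 were near background (89.2%, against 60.0% of all genes). The brightest was Hoxc12 (14.51, 14.11 and 14.09) followed by Hoxd3 (10.01). In the group of Pax, Lhx, Nkx, Dlx and related homeobox genes 40 of 42 were near background, in contrast with 4 of 16 Kruppel-like factors.

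Genes of DNA replication and mitosis were called in 36 of 42 (85.7%, against 34.1% of all genes). Of them 22 were bright (52.4%, against 10.0% of all genes) and 15 intermediate. Pcna, the sliding clamp of DNA polymerase, was 14.93, 15.25 and 14.61. Ube2c, which feeds the anaphase-promoting complex, had a mean of 13.81 with 13.63 in its lowest culture, the helicase subunit Mcm6 was 13.49, 13.70 and 13.53, and the spindle checkpoint protein Mad2l1 was 13.15, 13.64 and 13.59. For Mcm6 and Ube2c no difference between cultures was called (limma F test, adjusted p = 0.87 and 0.61). The dimmest members were Kif20a (6.57), Cdc2a (now Cdk1, 6.80), Cdc6 (8.01) and Ccne1 (8.57). Cdc2a encodes the mitotic kinase that dividing cells require, so a value near background on its 1 probe does not show absence, and Cdc6 had a probe at 11.96.

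Growth control genes were called in 15 of 26 (57.7%, against 34.1% of all genes). Ccnd1, cyclin D1, was 13.08, 13.48 and 13.13, and all 4 of its probes were in the bright band, at 11.80 to 14.19. Mdm2 (12.43, 13.06 and 13.04), the ubiquitin ligase for p53, Nf2 (12.26) and Cdkn2b (11.63, 12.27 and 12.20), an inhibitor of Cdk4 and Cdk6, were bright. Its neighbor gene Cdkn2a read 5.98, 5.86 and 6.15, and Cdkn1b 7.24. Among AP-1 and immediate early genes 9 of 19 were called (47.4%, against 34.1% of all genes). Ier3 (14.69), Fosl1 (12.24, 12.41 and 12.76), Dusp6 (12.17) and Dusp1 (12.02) were bright, whereas Egr1 (6.06, 6.31 and 6.52), Egr2, Fosb and Mycn were near background.

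**Figure D3:**
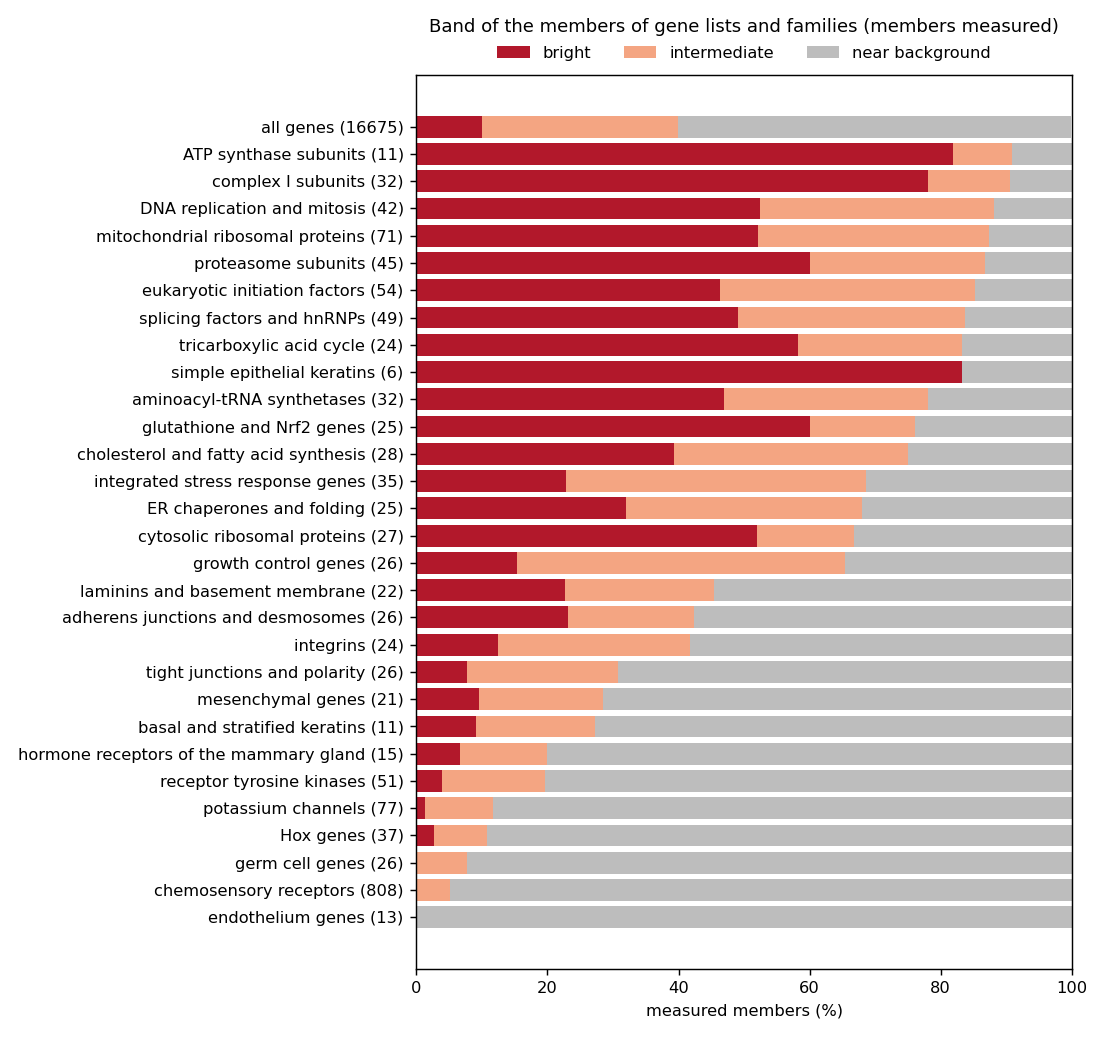
Share of the measured members of each list or family (y axis, number of measured members in parentheses) in the bright, intermediate and near-background bands (x axis, percent of members). All genes stand at the top with 10.0% bright and 60.0% near background. ATP synthase, complex I, and DNA replication and mitosis have the lowest near-background shares, and all 13 endothelial genes are near background by the median over their probes.

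Energy metabolism gave some of the highest shares. Of 32 complex I subunits 29 were called (90.6%, against 34.1% of all genes), among them Ndufa4 (14.08, 14.63 and 14.53). Of 11 ATP synthase genes 10 were called, and of 24 genes of the tricarboxylic acid cycle 20, with Mdh2 (15.67), Idh2 (13.81), Sdhd (13.72) and Fh1 (13.69) the brightest. Cytochrome c oxidase was called in 10 of 16 (62.5%), and 6 were near background. Those 6 included the heart, muscle or testis forms Cox6a2, Cox7a1, Cox8b and Cox8c, named after their values were seen, and also others. Glycolysis had 12 of 21 called, with Pgk1, Pgam1, Ldha (15.83, 15.53 and 15.98) and Pkm2 (14.92) at the top. Testis-specific Ldhc (6.10) and brain-enriched Aldoc (6.47) and Slc2a3 (6.54) were near background.

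Most genes of translation and the proteasome were above background. Mitochondrial ribosomal proteins were called in 61 of 71 (85.9%, against 34.1% of all genes). Initiation factors were called in 43 of 54, aminoacyl-tRNA synthetases in 25 of 32 and proteasome subunits in 37 of 45. Gars (14.75, 14.22 and 14.57) and Eprs (13.82, 14.05 and 14.11) were the 2 brightest synthetases, and Psma2 (15.08, 15.05 and 14.46) and Psmb1 (15.27, 14.05 and 14.61) the 2 brightest proteasome genes. In the proteasome family 6 subunits were near background, the lowest at 6.01. The immune proteasome subunits Psmb8 and Psmb9, named here after their values were seen, were near background at 6.37 and 6.72. They are not the dimmest of the family. Of 27 cytosolic ribosomal proteins on the array 18 were called, and 9 were near background.

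Some genes that nearly every cell uses were near background. Gapdh, a glycolytic enzyme, was 6.01, 6.43 and 6.35. The constitutive chaperone Hspa8 was 5.94, 5.70 and 5.97, the ER chaperone Calr was 5.94, 6.10 and 6.16, and thioredoxin, Txn1, was 6.91, 6.67 and 6.95. Each has 1 probe in the table and lay at the level of the chemosensory receptors in all 3 cultures. Rhoa (6.31) and Rpsa (5.84, from 2 probes), named after their values were seen, did the same. The 60.0% of genes near background therefore includes genes that mammalian cells are known to express.

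Most chaperone genes were above background, and a smaller number were bright. In the cytosolic list 16 of 27 were called (59.3%, against 34.1% of all genes) and 12 were bright. Cct5 was 15.63, 15.63 and 15.62 and Cct8 15.38, 14.89 and 15.42, both subunits of the chaperonin that folds actin and tubulin, and Hsp90ab1 was 14.97 ± 0.39 (SD, n = 3). Hspa1a, the heat-inducible form, was 6.13, 6.32 and 5.97. Of 25 ER chaperone and folding genes 17 were called and 8 were bright, led by Hspa5 (BiP, 14.90, 15.28 and 15.24), P4hb (14.98), Hsp90b1 (14.09) and Pdia3 (13.99). The sensors Atf6 (6.71) and Ern1 (7.94) were near background.

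Genes of the integrated stress response had signal in this control arm. In that list 20 of 35 were called (57.1%, against 34.1% of all genes). Without culture 1, and with the limit set again from the other cultures, 25 were called. The share of all genes called rose as well under that change, to 38.3%. The serine synthesis enzyme Psat1 was 15.30, 15.49 and 15.09, asparagine synthetase, Asns, was 14.34, 14.26 and 14.31, the transcription factor Atf4 was 14.17, 13.69 and 13.93, and the amino acid transporter subunit Slc3a2 was 13.69, 13.25 and 13.56. Each was bright in every culture. Pycr1 (7.57), Fgf21 (7.23), Stc2 (6.99) and Cbs (6.69) were near background. Since untreated cells were not analysed here, these values set no size of a stress response.

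Redox and lipid synthesis genes were also largely called. Of 25 glutathione and Nrf2 genes 18 were called (72.0%, against 34.1% of all genes). Among them Ftl1 and Prdx1 were at the top of the scale, Gsto1 at 15.27, 15.86 and 15.80 and Fth1 at 14.87, 15.08 and 15.03. Nqo1, a standard Nrf2 target, was 6.82, 7.69 and 7.30, and Gpx3 was 7.41. Cholesterol and fatty acid synthesis had 19 of 28 called. Scd2 (14.99, 13.94 and 15.33) and Fasn (14.73, 14.23 and 14.52), a desaturase and the fatty acid synthase, were bright, as were Fads1 (13.56) and Acly (13.26). Fdft1, squalene synthase, read 6.64, and Insig1 read 7.28 from 3 probes, of which 1 was at 9.57. Of the milk protein and milk fat list 6 of 18 were called (33.3%, close to the 34.1% of all genes), among them Spp1, Adfp (the lipid droplet protein now named Plin2, 12.94), Mfge8 (12.90, 11.67 and 12.37) and Muc1 (10.70).

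In the interferon and NF-kB list 13 of 41 were called (31.7%, close to the 34.1% of all genes). Ccl2 was 14.51, 14.64 and 14.87, Cxcl5 was 14.67, 14.21 and 13.86, B2m, the light chain of MHC class I, was 14.45, 14.74 and 14.27, and Rela was 12.62, 12.63 and 12.68. Il6, Ccl5, Cxcl2 and Ifit1 were between 5.81 and 6.01. Of 32 chemokines 25 were near background (78.1%, against 60.0% of all genes), and of 17 killer lectin-like and 12 Toll-like receptors none was called. Tnfrsf12a, the receptor for TWEAK, was 14.30, 13.84 and 14.04, the bright member among 20 receptors of its family.

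Most measured members of 2 further groups were above the limit. S100 proteins and annexins were called in 14 of 24, and galectins in 7 of 9, with Lgals3 (15.83, 15.71 and 15.98) next to Lgals1. Other families had bright members amid a near-background majority, which is also the state of all genes (10.0% bright, 60.0% near background). Solute carriers, with 7.87% bright and 65.6% near background, lay close to those shares. Serpins were called in 10 of 45, led by Serpinb6a (15.46). Of 305 solute carriers 93 were called (30.5%, close to the 34.1% of all genes), the brightest being the mitochondrial phosphate carrier Slc25a3 (14.96, 15.64 and 15.84). Of 77 potassium channels 68 were near background, and Kcnn4, a calcium-activated channel of non-excitable cells, was bright (12.27, 12.56 and 12.56). Of 34 sodium and calcium channel genes 31 were near background, and Cacna2d3 was bright (13.29). Aldh1a1, which makes retinoic acid, was 14.09, 14.10 and 14.32. Semaphorin Sema3c (13.06) and Plxnb2 (13.06) led their group of 27.

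The Y-linked members of a list of sex-linked genes were near background. Of the 5 measured genes on the Y chromosome, not all were near background, and none was bright. The listed Y-linked genes Eif2s3y, Uty, Jarid1d (now Kdm5d) and Zfy1 had means of 5.56 to 6.14. Eif2s3x (13.39, 13.68 and 13.17), the X-linked partner of Eif2s3y, was bright. The partners of Uty and Jarid1d, Utx (9.88) and Jarid1c (9.35), were intermediate. The X-linked gene Ddx3x was bright (13.58), and its Y-linked partner was not measured. In the imprinted and fetal list 3 of 17 were called (17.6%, against 34.1% of all genes). They were Afp (alpha-fetoprotein, 11.28, 11.30 and 11.44), Nnat (10.63) and Zim1 (10.34), with H19 at 8.06 and Igf2 at 7.84. Of 13 pluripotency genes Klf4 (9.97) and Esrrb (9.60) were called (15.4%).

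The limit was set at the 95th percentile of the chemosensory receptors themselves. That 41 of the 808 lay above it therefore follows from its definition and is no result. Olfr112 was the bright one of 689 odorant receptors, at 12.70, 11.90 and 12.43, and Olfr544 was 11.48, 11.68 and 11.47. The highest vomeronasal receptor was V1rd4 (now Vmn1r58, 9.62), and Tas2r116, a bitter taste receptor, was 9.87, 10.30 and 9.59. Each is above the limit in all 3 cultures. Of the 26 beta-defensins 23 were near background (88.5%, against 60.0% of all genes), with Defb21 at 10.54, and of the 20 keratin-associated proteins of hair 19.

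The cultures were then compared with each other. Between cultures, 2147 genes (12.9%) differed by more than the spread of technical arrays (limma F test over 9 arrays, Benjamini-Hochberg adjusted over all genes), and 819 of them had a range over 1 on the log2 scale. Technical arrays are repeats of 1 culture, so this says that cultures differ, and nothing of a condition. Culture 1 was highest in 1253 of these genes (7.51% of all genes) and lowest in 804 (4.82%). In pairs, 1461 genes differed between cultures 1 and 2, 2744 between 1 and 3, and 13 between 2 and 3. These pairs come from 1 fit over all 9 arrays. In fits on the 6 arrays of the other cultures, the count was 19 without culture 1, 1 without culture 3 and 1869 without culture 2, so a fit on cultures 1 and 2 alone called 1 gene where the fit over all arrays called 1461. The count was 0 without technical array 1 of every culture and 0 without technical array 2 (limma, 4000 and 2107 genes at an unadjusted p under 0.05), and 1391 without technical array 3. With the technical array number as a block it was 242. By band, 120 of 1668 bright, 813 of 4994 intermediate and 1214 of 10013 near-background genes were called. Among the near-background genes called, culture 1 was highest in 747 and lowest in 427, and among the bright ones it was highest in 46 and lowest in 67.

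The median range between cultures over the 2147 genes was 0.907 on the log2 scale. The genes given next were picked for the smallest p or the widest range, so their differences are larger than is typical. Daam2, a formin-like activator of actin and Wnt signaling, read 13.70, 13.96 and 13.11 on the arrays of culture 1, 10.95, 10.10 and 11.44 on those of culture 2, and 11.82, 10.99 and 10.64 on those of culture 3. All arrays of culture 1 were above all others. Culture 1 was also the highest for Slc10a7 (13.55, 10.20 and 10.66 as culture means), Sez6l (11.16, 8.43 and 7.53) and the homeobox gene Msx1 (10.77, 9.01 and 8.54). Cldn17, a claudin, was lowest in culture 1, with arrays at 8.56, 8.99 and 11.20 against 11.41 to 13.31 in the others. Some genes set another culture apart. Tmed9, a cargo receptor of the early secretory pathway, was 10.78 and 10.94 in cultures 1 and 3 and 8.16 in culture 2 (limma F test, adjusted p = 0.00115, the smallest). Reep3 was 10.85, 11.64 and 8.68, and Pdap1 12.07, 11.36 and 9.38, with culture 3 the lowest. For each of the 3 the arrays of the outlying culture were below all other arrays.

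**Figure D4:**
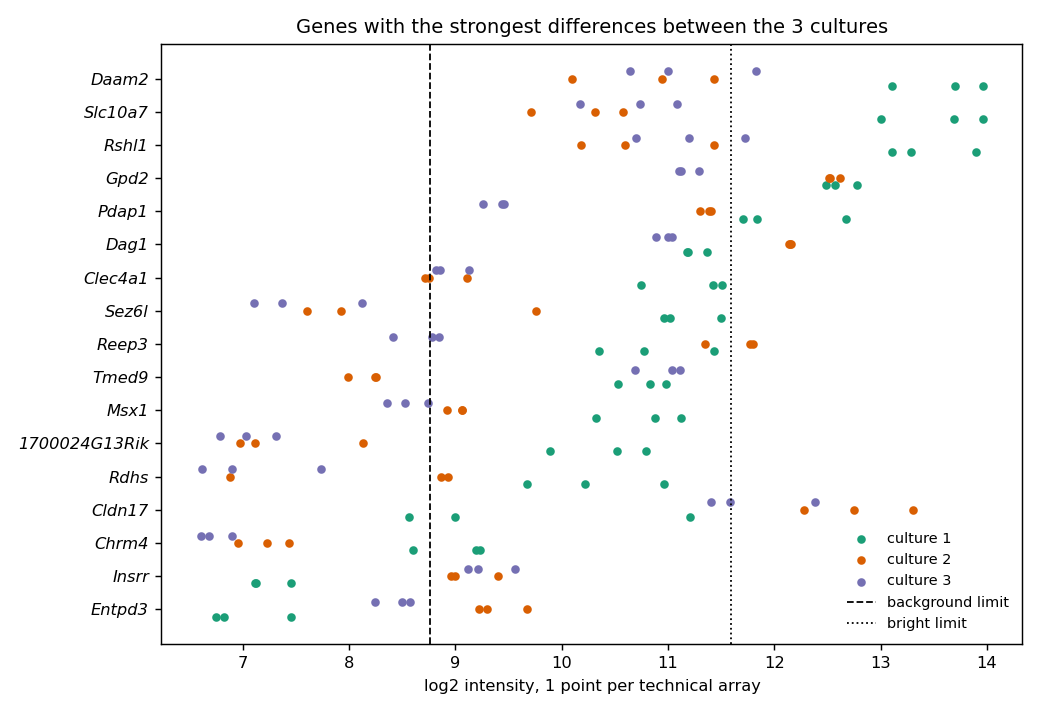
Log2 intensity on each of the 9 arrays (x axis, 1 point per technical array, color by culture) for the 17 genes named for their differences between cultures (y axis). Daam2, Slc10a7, Rshl1 and Sez6l have all culture 1 points on the right, while Tmed9 has culture 2, and Reep3 and Pdap1 have culture 3, on the left.

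Genes with several probes show how far a band depends on the probe. Of 3539 such genes the median gap between the highest and lowest probe was 1.47 on the log2 scale, 1322 (37.4%) had probes on both sides of the background limit and 229 had both a near-background and a bright probe. Hsp90aa1, an inducible form of the chaperone, had the widest gap, with probes from 5.82 to 15.58. Fkbp1a had probes at 6.31 and 15.56, Gdi2 at 6.51 and 15.22, and Eef1d at 6.73 and 14.68, and the medians that put these last 3 genes in the intermediate band fit neither probe. Further genes named above with probes on both sides of the limit were Ltbp3 (7.52 to 12.92), Igf1r (6.58 to 9.71), V1rd4 (8.30 to 10.94), Elf3 (8.01 to 8.87) and Prom1 (6.55 to 9.18). Of the genes near background with several probes, 685 had at least 1 probe above the limit. A further 13136 genes have 1 probe and no such check.

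Bright and near-background genes differed in their promoters. RefSeq promoters of 300 bases, from 250 before to 50 after the annotated start, were found for 13375 measured genes. In bright genes 81.6% of promoters had a CpG observed to expected ratio over 0.6, the form of CpG-rich promoters, against 75.5% of intermediate, 41.3% of near-background and 0.435% of chemosensory receptor genes, with 55.9% of the 13375 promoters of measured genes and 36.4% of all 27025 promoters. The median count of CpG was 22, 21, 10 and 1 in these groups. Of the promoters printed above, Atp5b has 12 CpG in its 150 bases, Mcm6 17 and Ube2c 12, while Spp1 has 1, and Olfr544 and Tas2r123 have 0. Krt8 with 4 and Spp1 are bright genes without that base composition. Olfr544 also lacks it, and its mean of 11.55 is intermediate and close to the bright limit.

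Short motifs went with it. The GC box (GGGCGG) was in 67.2% of bright, 66.8% of intermediate, 43.9% of near-background and 1.02% of receptor promoters, and in 53.3% of the measured genes and 35.9% of all. A GC box itself contains CpG, so this count is not separate from the CpG count. The ETS site (CCGGAAGT) was in 10.7%, 9.5%, 3.3% and 0% (4.0% of all), and Rpl41 above carries 1. In cytosolic ribosomal protein genes it was in 26.1% of 23 promoters. The TATA box (TATAAA) ran the other way, in 7.05% of bright, 6.61% of intermediate, 14.3% of near-background and 38.9% of receptor promoters, against 11.2% of the measured genes and 14.2% of all, and is seen in Krt8, Vim and Tas2r123. The CCAAT box (CCAAT) hardly varied by band, at 40.5%, 38.3% and 37.5%, with 37.9% of all promoters. In the 34 promoters of DNA replication and mitosis genes it was in 73.5%, and Pcna, Ube2c and Mcm6 show it in the reverse orientation (ATTGG), Ube2c and Mcm6 in more than 1 copy. These are matches of letters in a fixed window around 1 annotated start per gene, and no binding was measured.

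**Figure D5:**
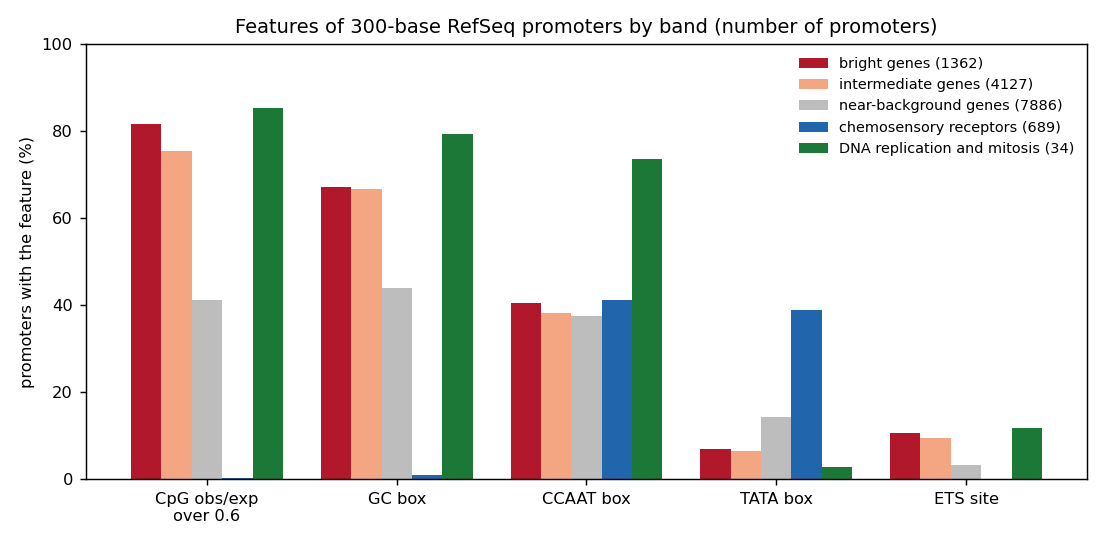
Percentage of 300-base promoters (y axis) with a CpG observed to expected ratio over 0.6 or with a GC box, CCAAT box, TATA box or ETS site (x axis), for bright, intermediate and near-background genes, chemosensory receptors, and DNA replication and mitosis genes (number of promoters in the legend). CpG-rich form and GC boxes fall from bright to near-background genes and are nearly missing in receptors, TATA boxes go the other way, and CCAAT boxes stand out in replication and mitosis genes with 73.5%.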

How the data were processed

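The deposited values, per the labels and the study's methods, are intensities from 1-color mouse whole genome arrays. Before quantile normalization over the 18 arrays the authors dropped each probe that was below 0 or absent on at least 1 of them, so such probes are not analysed here. The scanner and the background correction are not given in the sources used here. The 9 MAZ1310 arrays were used, and no array of halofuginone entered any fit. Gene symbols of the probes came from the array's annotation (21020 with 1 symbol, 953 with none), 16633 genes matched a current symbol in RefSeq names (GRCm38.p6), and symbols are printed as annotated.

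Values were taken to log2, summarised by the median over probes of a gene, and averaged over the 3 technical arrays of a culture. A level above the background limit was tested on the 3 culture values with limma 3.58.1 in R 4.3.3 (intercept only, eBayes with an intensity trend, one-sided), and differences between cultures with the moderated F test over 9 arrays, both with Benjamini-Hochberg adjustment at 0.05 over 16675 genes. Nothing in the labels says whether the cultures were started separately, so p-values measure the spread between these cultures or arrays only, which may be technical. The median SD was 0.204 over culture means, each an average of 3 arrays, and 0.225 between single technical arrays of a culture. The first is of averages and the second of single arrays, so their sizes cannot be compared directly.

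The genes named are the members of lists of up to 12 genes, the 4 brightest and 4 dimmest of longer lists, sole members of a band, the 20 brightest genes, the 10 genes with the smallest p and 10 with the widest range between cultures, the 10 largest probe gaps, the markers of the label check and the 2 brightest of each family, with exceptions said in place. The members, the lists and the tests were chosen with earlier results of these data known. On simulated data of 16675 genes with 1 of 3 cultures shifted, 18% of changes of 1.5-fold, 52% of 2-fold and 86% of 4-fold were called, with 7 unchanged genes called. The simulated arrays were drawn independently, with no variation shared between genes or arrays, so these rates may not hold for the real arrays. Alternatives covered the background limit, the bright limit, the summary over probes and arrays, the scaling, the fit and each culture or technical array left out.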

Additional observations from a re-analysis of the deposited data

Results flagged for a closer look

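Single arrays that stood apart were sought among the 9 arrays for the 96 named genes, by Dixon's test of the highest or lowest value. It picked out 9 genes. The test assumes independent values, and these are 3 technical arrays for each of 3 cultures, so the count cannot be set beside a chance rate. The low values were Fkbp1a (10.49), Krt5 (6.30), Itgb4 (8.60) and Zeb2 (6.81) on array 1 of culture 1, Rbbp7 (10.42) on array 2 of culture 2 and Cldn4 (9.01) on array 2 of culture 3. The high values were Glycam1 (6.29) on array 1 and Wap (6.83) on array 2 of culture 1, and Thy1, a marker of fibroblasts, at 9.76 on array 3 of culture 3 against at most 6.43 on the others. Array 1 of culture 1 holds 5 of the 9.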

How the results depend on the processing

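The count of genes above background follows the limit. With the 99th percentile of the receptor genes as the limit 3386 genes were called and 2666 were intermediate, with genes of other tissues setting it 3216 and 2451, against 5689 and 4994. The bright limit at the 80th percentile left 3327 intermediate genes. Leaving out 1 culture, with the limit set again from the others, gave 5086 to 6386 genes above background. Each culture's own limit, an alternative added after the data were seen, gave 5486 in all 3 cultures. The count of genes that differ between cultures, 2147, moved far more. It was 1 to 1869 with 1 culture left out (19 without culture 1, 1 without culture 3), 0 without technical array 1, 0 without technical array 2 and 1391 without technical array 3, 409 of 6662 with near-background genes left out, and 242 with the technical array number as a block. The cause was not tested. Luminal markers above the limit numbered 8 to 10 of 17. Values of named genes moved by more than their SD over cultures in 22 of 96 with the brightest probe and in 8 of 96 with the mean over probes. No paired analysis was possible because all arrays used here belong to 1 group. Signal near background limits dim genes, and saturation limits the brightest.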

Other observations

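Of the 953 probes with no gene symbol, 335 (35.2%) had a mean above the background limit and 82 were in the bright band, against 40.1% above the limit among named probes. By chromosome, the share of near-background genes was 54.2% on chromosome 8, 55.3% on chromosome 19 and 55.5% on chromosomes 11 and 15, and 66.6% on chromosome 14, 66.2% on the X chromosome and 66.1% on chromosome 7. With the chemosensory receptors left out, chromosome 7 fell to 62.0% and chromosome 2 from 59.7% to 54.6%, and the X chromosome stayed at 66.0%. Chromosome 19 had the highest share of bright genes, 16.2% of its 588 measured genes.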
